A study of Mus musculus with 11 samples.

Results

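The 35 genes described here are Myc and 34 factors that make ribosomes: RNA polymerase I subunits, proteins of the small nucleolar ribonucleoproteins (snoRNPs), nucleolar organisers and assembly factors of the small and large ribosomal subunits. They were taken by symbol from a table of 24421 genes, all 35 were found, and all 35 passed the filter on low counts that left 13711 genes to test. RNA-seq counts came from 11 libraries of natural killer (NK) cells that carry Ly49H, an activating receptor for a protein of mouse cytomegalovirus (MCMV), sorted from C57BL/6 spleens as TCRb- CD3e- NK1.1+ DX5+ Ly49H+. The groups by title were LDHA-deficient (KO) cells at D2 (3 libraries), wild-type (WT) cells at D2 (3), KO cells at D0 (3) and WT cells at D0 (2). LDHA is 1 of the subunits of lactate dehydrogenase, an enzyme of glycolysis that turns pyruvate into lactate and back.

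All 11 samples carry MCMV infection as their treatment and come from mixed bone marrow chimeras, in which KO cells bear CD45.2 and WT cells CD45.1. The labels read day 2 after infection for every sample, so D0 and D2 are used as the titles' terms, and whether D0 cells came from infected mice is not settled by the sources used here. The genotype label of the WT-titled samples lists both genotypes, so their titles were followed. Neither the part of Ldha removed nor a promoter or Cre driver is given, and KO and WT cells also differ by the CD45 allele. Each sample is labelled as 1 mouse. RNA was amplified to cDNA with a low-input kit.

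Myc is a transcription factor that pairs with Max, binds the sequence CACGTG (the E-box) and drives many genes of growth, with ribosome production among its best known outputs. RNA polymerase I copies ribosomal DNA into a long precursor RNA in the nucleolus. Box C/D and box H/ACA snoRNPs modify that RNA, and the small and large subunit assembly factors fold, cut and package it with ribosomal proteins. Resting lymphocytes keep this machinery low, and activated lymphocytes raise it as they grow before dividing.

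Ldha stood at 115, 113 and 101 CPM (each library's counts put on one common total with TMM factors) in KO libraries at D2, against 3101, 2753 and 2856 CPM in WT libraries at D2. At D0 it stood at 91.1, 103 and 104 CPM in KO libraries, against 563 and 656 CPM in WT libraries. Total counts ran from 19452460 to 27992092 per library. NK markers (9 genes) summed to between 9788 and 18302 CPM in every library, and 6 T cell markers to between 13.9 and 31.1 CPM. Single NK markers did not move alike. Prf1 stood at 4363 to 6053 CPM in D2 and 1633 to 1913 CPM in D0 libraries. Klrb1c stood at 391 to 808 CPM in D2 and 1429 to 1681 CPM in D0 libraries. Ncr1 stood at 640 to 914 CPM in KO and 1208 to 1595 CPM in WT libraries. Klra8 (Ly49H) stood at 475 to 493 CPM in KO D2 and 419 to 449 CPM in WT D2 libraries. At D0 it stood at 399 to 1254 CPM in KO and 1064 to 1286 CPM in WT libraries. Tbx21 stood at 124 to 165 CPM in KO D2 and 290 to 769 CPM in WT D2 libraries. At D0 it stood at 280 to 925 CPM in KO and 492 to 905 CPM in WT libraries. Eomes was lower in D2 and Gzma higher in D2 than in D0 libraries.

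Sequences that bear on 2 points are shown here. The first point is the E-box: promoters (250 bases before to 50 after a transcription start, RefSeq, GRCm38.p6) were in the table for 28 of the 35 genes, and CACGTG, which reads the same on both strands, occurred in 6 of these 28 (21.4%). A gene was counted if any of its promoters held the E-box. The share was 11.3% among the 10880 tested genes with a promoter in the table and 8.09% among all 27025 genes with one. Counted per promoter, it was 7.15% of 32851. The 30 bases around each match are printed 5′ to 3′ on the gene's strand, with the E-box in capitals, and the 6 genes were picked after the search. Relative to the transcription start the E-box began at base 41 in Mybbp1a, 38 in Utp20, 18 in Wdr43, 3 in Pes1 and 39 in Mdn1, and 60 bases upstream in Nop2.
Mybbp1a, chr11:72441347-72441376, plus strand: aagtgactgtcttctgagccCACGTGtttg
Utp20, chr10:88826765-88826794, minus strand: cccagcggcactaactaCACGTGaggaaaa
Wdr43, chr17:71616220-71616249, plus strand: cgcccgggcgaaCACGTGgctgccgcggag
Pes1, chr11:3963965-3963994, plus strand: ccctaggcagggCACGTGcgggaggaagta
Nop2, chr6:125131811-125131840, plus strand: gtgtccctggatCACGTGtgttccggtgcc
Mdn1, chr4:32657139-32657168, plus strand: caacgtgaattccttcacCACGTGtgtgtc

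The second point is base composition, because the 2 members that differed between genotypes are also the 2 with the most GC-rich segment. For each gene the highest GC share of any 100-base window of its longest protein-coding transcript (GENCODE M21, GRCm38) is called its peak GC. The windows of Gar1 and Rrs1 follow, both 80% GC and both wholly coding, with G and C in capitals.
Gar1, chr3:129830649-129830748, minus strand: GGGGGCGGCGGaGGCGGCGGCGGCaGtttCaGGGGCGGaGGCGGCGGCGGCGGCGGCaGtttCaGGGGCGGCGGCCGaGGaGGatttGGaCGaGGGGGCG
Rrs1, chr1:9545753-9545852, plus strand: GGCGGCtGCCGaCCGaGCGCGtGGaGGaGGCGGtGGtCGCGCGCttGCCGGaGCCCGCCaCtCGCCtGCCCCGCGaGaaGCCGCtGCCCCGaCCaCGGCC

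Between the title days, transcripts of Myc and of the ribosome factors were higher at D2 in both genotypes. In KO cells 33 of the 35 members were called higher and 0 lower (edgeR's quasi-likelihood test, Benjamini-Hochberg adjusted p under 0.05 over all genes tested), where 27% of all tested genes were called higher and 34.5% lower. In WT cells all 35 were called higher, where 27.5% of all genes were called higher and 26% lower. The median member stood 3.70-fold higher at D2 in KO cells and 3.90-fold higher in WT cells. On the log2 scale this median was 1.89 in KO cells and 1.96 in WT cells, against -0.20 in KO cells and -0.07 in WT cells for all tested genes. The D2 libraries all lay above the D0 libraries for 33 members in KO cells (29.2% of all genes) and for all 35 in WT cells (33.6%). In bulk RNA, fewer cells of a type and less RNA per cell cannot be told apart.

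The summed share of all counts that fell on the 35 genes was 0.950% ± 0.101 in KO D2, 0.996% ± 0.0510 in WT D2 and 0.293% ± 0.00455 in KO D0 libraries (SD, n = 3 each). It was 0.298% ± 0.0111 in WT D0 libraries (SD, n = 2). The D2 libraries thus all lay between 0.835% and 1.04%, and the D0 libraries all between 0.289% and 0.306%. KO D2 replicate 1 held the lowest share of the D2 libraries.

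**Figure D1:**
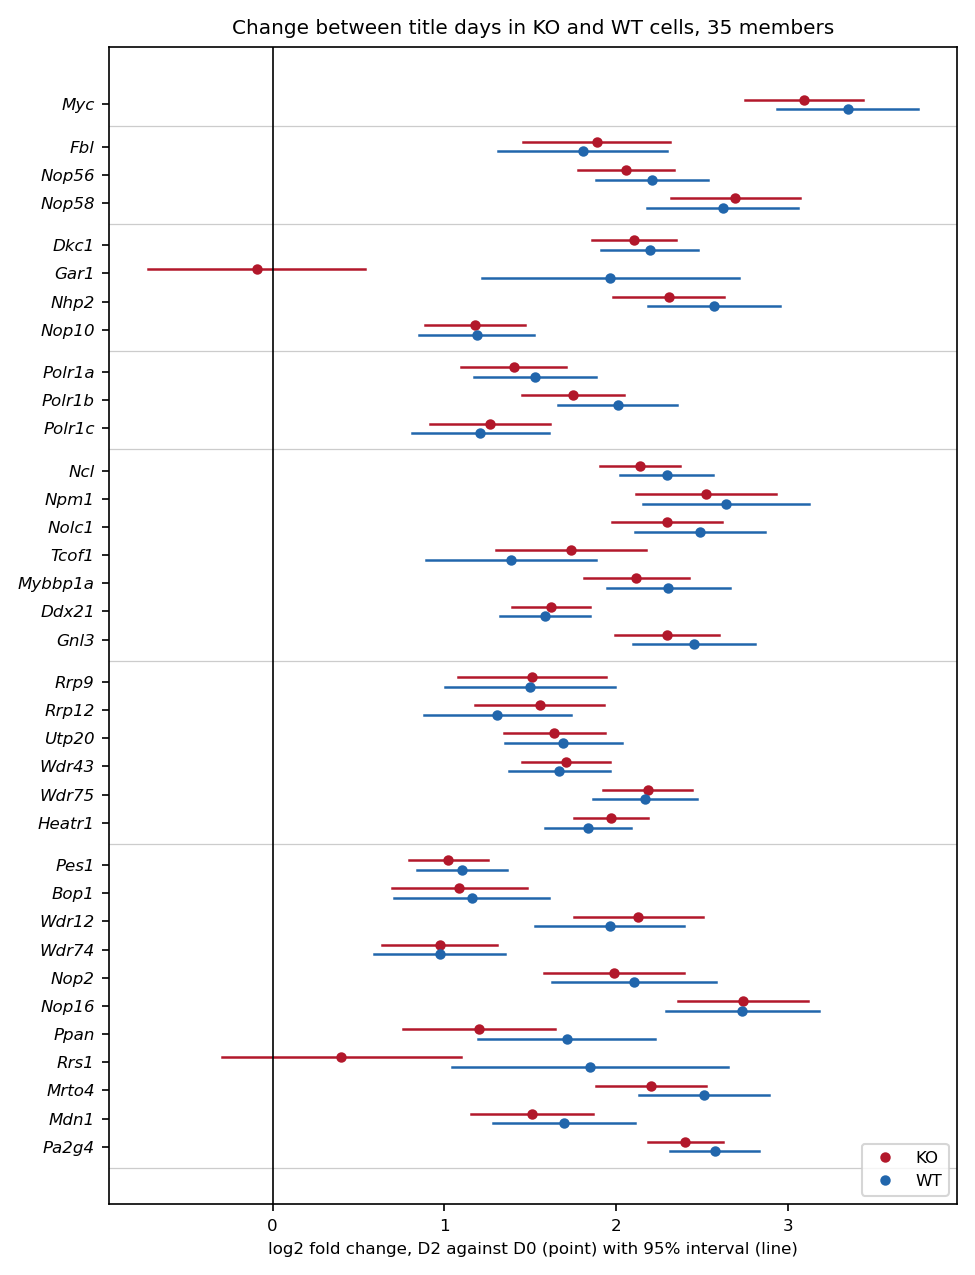
The log2 fold change of D2 against D0 is plotted for each of the 35 genes in KO and WT cells, with points for the estimates and lines for the 95% intervals. All WT points lie between 0.97 and 3.35, and the KO points of Gar1 (-0.09) and Rrs1 (0.40) lie near 0 while the other 33 KO points lie between 0.97 and 3.10.

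Myc (Entrez 17869, chr15:61985341-61990361, GRCm38.p6) had the largest D2 against D0 change of the members in both genotypes. Its level was 976, 1405 and 1130.0 CPM in KO libraries at D2 and 1237, 1579.8 and 1275 CPM in WT libraries at D2. At D0 it was 121, 149.8 and 139 CPM in KO libraries and 134 and 133 CPM in WT libraries. Every D2 library lay far above every D0 library, while the genotypes overlapped at each title day. Against D0, Myc at D2 was 8.55-fold higher in KO cells (log2 3.10, SE 0.16, edgeR adjusted p = 1.3e-08) and 10.2-fold higher in WT cells (log2 3.35, SE 0.19, edgeR adjusted p = 4.1e-08). Between genotypes at D2 the log2 difference, KO minus WT, was -0.22 (95% interval -0.54 to 0.10, edgeR adjusted p = 0.41). With replicate number as a block within the title day it was -0.23 and passed the threshold (edgeR adjusted p = 0.032). It did not pass with the block across days (-0.23, edgeR adjusted p = 0.13) or with the block and a GC offset (-0.20, edgeR adjusted p = 0.063). The GC offset takes out of each library the trend of its deviations with peak GC. Any genotype difference that follows peak GC is taken out with it. Without block or offset, the difference of the day change of Myc between genotypes was -0.26 (95% interval -0.73 to 0.22, edgeR adjusted p = 0.65).

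The 3 proteins of the box C/D snoRNPs, particles that methylate ribosomal RNA, all rose in both genotypes. They are Fbl, the methyltransferase fibrillarin, and the scaffold pair Nop56 and Nop58. Nop56 (Entrez 67134, chr2:130274367-130279313) stood at 561, 696 and 596 CPM in KO D2, 629, 708 and 673 CPM in WT D2, 143, 138 and 165 CPM in KO D0 and 130.0 and 159 CPM in WT D0 libraries. All D2 libraries lay above all D0 libraries, and KO and WT overlapped on each day. The log2 change of Nop56 was 2.06 in KO cells (SE 0.13, edgeR adjusted p = 5.4e-08) and 2.21 in WT cells (SE 0.15, edgeR adjusted p = 1.5e-07). The log2 changes in KO and WT cells were 2.70 and 2.62 for Nop58 and 1.89 and 1.81 for Fbl. The span of Nop56 overlaps that of Idh3b in the genome. Without a stated strand of counting, reads from any stretch they share may not be told apart.

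The box H/ACA snoRNP turns uridine of ribosomal RNA into pseudouridine, and its 4 core proteins did not move alike. Dkc1 (Entrez 245474, chrX:75095854-75109776), the pseudouridine synthase dyskerin, stood at 272, 341 and 315 CPM in KO D2, 318, 327 and 324 CPM in WT D2, 70.01, 68.5 and 77.1 CPM in KO D0 and 70.1 and 70.8 CPM in WT D0 libraries. It was higher at D2 by 2.11 in KO cells (SE 0.11, edgeR adjusted p = 1.8e-08) and 2.198 in WT cells (SE 0.13, edgeR adjusted p = 5.7e-08) on the log2 scale, with KO and WT libraries overlapping at D2. The complex partners Nhp2 and Nop10 also rose, with log2 changes of 2.31 and 1.18 in KO cells and 2.57 and 1.19 in WT cells. Dkc1 overlaps Mpp1, and Nhp2 overlaps Rmnd5b.

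Gar1 (Entrez 68147, chr3:129824912-129831407), the fourth core protein of the box H/ACA snoRNP, was called higher at D2 in WT cells. In KO cells it was not called higher without the GC offset, but was called higher with it. Its level was 16.3, 21.6 and 22.8 CPM in KO D2 libraries, against 53.2, 115 and 107 CPM in WT D2 libraries. At D0 it was 13.7, 27.0 and 24.0 CPM in KO and 21.3 and 25.6 CPM in WT libraries. All KO D2 libraries lay below all WT D2 libraries and within the range of the D0 libraries, and WT D2 replicate 1 was the lowest of its group. Gar1 was 4.54-fold lower in KO than in WT cells at D2 (log2 -2.18, SE 0.30, edgeR adjusted p = 0.00039). Its D2 against D0 log2 change was -0.09 in KO cells (95% interval -0.73 to 0.54, edgeR adjusted p = 0.80) and 1.97 in WT cells (SE 0.34, edgeR adjusted p = 0.00035). The test of the difference between these changes gave a log2 value of -2.06 (SE 0.44, edgeR adjusted p = 0.023). Gar1 was the only member called in that difference, where 5.72% of all tested genes were called lower and 0.124% higher, but the call held in 3 of the 11 fits that each left out 1 library, with adjusted p between 0.0023 and 0.14.

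The 3 RNA polymerase I members all rose in both genotypes. Polr1b (Entrez 20017, chr2:129100970-129128060), the second largest subunit of the enzyme, stood at 146, 177 and 165 CPM in KO D2, 156, 187 and 176 CPM in WT D2, 40.8, 49.1 and 55.3 CPM in KO D0 and 45.0 and 41.0 CPM in WT D0 libraries. The D2 libraries lay above all D0 libraries, with the genotypes overlapping on both days. The log2 change was 1.75 in KO cells (SE 0.14, edgeR adjusted p = 2.9e-07) and 2.01 in WT cells (SE 0.16, edgeR adjusted p = 4.7e-07). For Polr1a, the largest subunit, it was 1.40 in KO and 1.53 in WT cells, and for Polr1c, a subunit shared with RNA polymerase III, 1.27 in KO and 1.21 in WT cells. Polr1a overlaps the predicted gene Gm26628.

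All 7 nucleolar organisers rose in both genotypes, with log2 changes from 1.62 to 2.53 in KO cells and from 1.39 to 2.64 in WT cells. Ncl (Entrez 17975, chr1:86344719-86359455), nucleolin, stood at 1599.9, 1889 and 1806 CPM in KO D2, 1935, 2039 and 1911 CPM in WT D2, 431, 398 and 372 CPM in KO D0 and 402 and 398 CPM in WT D0 libraries. At D2 the 3 KO libraries all lay below the 3 WT libraries, by little. The day change of Ncl was 2.14 in KO cells (SE 0.11, edgeR adjusted p = 1.1e-08) and 2.29 in WT cells (SE 0.13, edgeR adjusted p = 3.4e-08) on the log2 scale, and the genotype difference at D2 of -0.15 did not pass (edgeR adjusted p = 0.42). The highest changes of this group were those of Npm1, nucleophosmin, at 2.53 in KO and 2.64 in WT cells. Nolc1, a chaperone of snoRNPs, changed by 2.30 in KO and 2.49 in WT cells, and Gnl3, the GTP-binding protein nucleostemin, by 2.30 in KO and 2.46 in WT cells. Mybbp1a changed by 2.12 in KO and 2.31 in WT cells, and the RNA helicase Ddx21 by 1.62 in KO and 1.59 in WT cells. Gnl3 overlaps Glt8d1, and Mybbp1a overlaps Spns2. Npm1 has processed pseudogenes that can take or give reads, so its level is uncertain. Tcof1, treacle, which helps RNA polymerase I transcription, had a larger estimate in KO cells (1.74) than in WT cells (1.39), but the difference of 0.35 did not pass the threshold.

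Of the small subunit processome, the particle that starts to fold and cut the precursor RNA, all 6 members rose in both genotypes, by 1.51 to 2.19 in KO cells and 1.31 to 2.17 in WT cells on the log2 scale. Heatr1 (Entrez 217995, chr13:12395375-12438893), which in yeast is Utp10, stood at 229, 235 and 248 CPM in KO D2, 221, 225 and 216 CPM in WT D2, 56.9, 60.2 and 64.2 CPM in KO D0 and 63.6 and 59.9 CPM in WT D0 libraries. It was the 1 member whose KO D2 libraries all lay above the WT D2 libraries, and that difference did not pass (log2 0.10, edgeR adjusted p = 0.59). Its day change was 1.97 in KO cells (SE 0.10, edgeR adjusted p = 1.2e-08) and 1.84 in WT cells (SE 0.11, edgeR adjusted p = 7.6e-08). The other 5 members changed by similar amounts in both genotypes. Wdr75 and Wdr43, which load early onto the precursor RNA, changed by 2.19 and 1.71 in KO cells and by 2.17 and 1.67 in WT cells. Utp20 changed by 1.64 in KO and 1.69 in WT cells. Rrp9, which binds the U3 snoRNA, changed by 1.51 in KO and 1.502 in WT cells, and Rrp12, which in yeast acts in export of subunits from the nucleus, by 1.56 in KO and 1.31 in WT cells.

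Large subunit assembly had 11 members, of which 10 rose in KO cells and 11 in WT cells. Pa2g4 (Entrez 18813, chr10:128557766-128565934), which binds the large subunit and is also called EBP1, stood at 422, 461 and 458 CPM in KO D2, 497, 461 and 458 CPM in WT D2, 85.7, 80.9 and 86.4 CPM in KO D0 and 75.7 and 82.8 CPM in WT D0 libraries. Its day change was 2.41 in KO cells (SE 0.10, edgeR adjusted p = 3e-09) and 2.57 in WT cells (SE 0.12, edgeR adjusted p = 1.1e-08). The group also held the smallest and the second largest WT changes of all members, those of Wdr74 (0.97 in KO and 0.97 in WT cells) and of Nop16 (2.74 in KO and 2.74 in WT cells). The 3 proteins of the PeBoW complex, Pes1, Bop1 and Wdr12, which acts in cutting the precursor of the large subunit RNA, changed by 1.02, 1.09 and 2.13 in KO cells and by 1.10, 1.16 and 1.96 in WT cells. Nop2, which methylates large subunit RNA, changed by 1.99 in KO and 2.11 in WT cells, Mrto4, a placeholder for a stalk protein, by 2.205 in KO and 2.51 in WT cells, and the large ATPase Mdn1 by 1.51 in KO and 1.70 in WT cells. Bop1 overlaps Mroh1 and Scx in the genome, and Wdr12 overlaps Carf.

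Rrs1 (Entrez 59014, chr1:9545408-9547455), which in yeast brings the 5S RNA particle into the large subunit, was the other member called between genotypes. It stood at 8.34, 13.2 and 11.2 CPM in KO D2 libraries, against 16.0, 45.0 and 32.9 CPM in WT D2 libraries, and at 6.70, 9.88 and 8.22 CPM in KO D0, against 7.43 and 9.93 CPM in WT D0 libraries. The KO and WT libraries did not overlap at D2, and WT D2 replicate 1 again lay closest to the KO libraries. Rrs1 was 2.87-fold lower in KO than in WT cells at D2 (log2 -1.52, SE 0.32, edgeR adjusted p = 0.0049). Its day change was 0.40 in KO cells (95% interval -0.29 to 1.09, edgeR adjusted p = 0.30) and 1.85 in WT cells (SE 0.37, edgeR adjusted p = 0.001). The difference of the day changes, -1.45, did not pass (95% interval -2.49 to -0.41, edgeR adjusted p = 0.10). With the GC offset, Rrs1 was called higher at D2 in KO cells too.

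**Figure D2:**
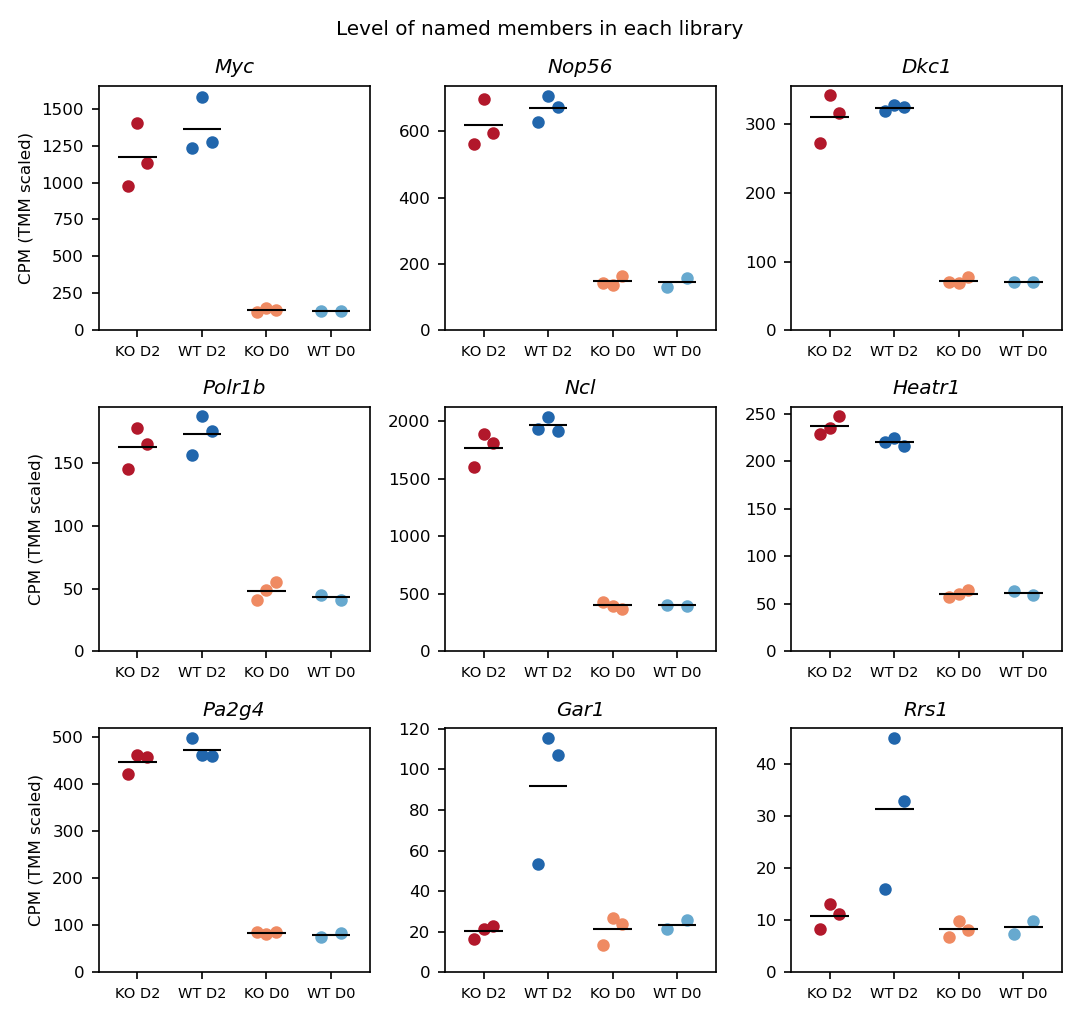
The CPM of Myc and of the members described per library are plotted, 1 panel per gene, with a point for each library and a line for the group mean. Gar1 and Rrs1 have KO D2 points among the D0 points or just above them, whereas the other panels have KO D2 and WT D2 points together above the D0 points.

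Set against each other at D2, KO and WT cells thus differed in few members. In all, 2 of the 35, Gar1 and Rrs1, were called lower and 0 higher in KO cells, where 14.5% of all tested genes were called lower and 1.61% higher (4.92% higher with the DESeq2 test). With the GC offset 3 members were called lower (Gar1, Rrs1 and Ppan) and 0 higher, where 8.96% of all genes were called lower and 5.6% higher. The median log2 difference of the members was -0.07, or 0.02 with RLE scaling, against 0.01 for all genes, or 0.10 with RLE scaling. The labels do not say what replicate numbers mark, so the main test held no block. Whether the numbers pair the D2 libraries is not settled, and calls with a block are given beside it. With the number as a block within the title day 5 members were called lower (Gar1, Rrs1, Ppan, Myc and Mrto4), where 18.6% of all genes were. With the block across days 3 were (Gar1, Rrs1 and Ppan), where 16.7% of all genes were. Without overlap 6 members lay lower and 1 higher in KO cells (21.3% and 12.4% of all genes). For the 33 members not called, the 95% intervals of the log2 difference ran from -1.01 to 0.50, and 26 of them lay within 0.5 of 0 on both sides.

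Ppan, a large subunit assembly factor with a yeast counterpart named Ssf1, had the third smallest p in this comparison and is named after its values were seen. It stood at 98.5, 129.6 and 137 CPM in KO D2 libraries, against 152, 198 and 191 CPM in WT D2 libraries, without overlap. Its log2 difference at D2 was -0.57 (95% interval -1.01 to -0.13, edgeR adjusted p = 0.079), and with the block within the title day -0.57 (edgeR adjusted p = 0.00064). With the GC offset it was -0.67 and passed (edgeR adjusted p = 0.035). Ppan has a peak GC of 70%.

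At D0 no member was called between the genotypes. In KO against WT, 0 of the 35 passed the threshold, where 0.153% of all tested genes were called, 0 had an unadjusted edgeR p under 0.05, and DESeq2 also called 0. The 95% intervals of the log2 difference ran from -0.84 to 0.70, and 24 of the 35 lay within 0.5 of 0 on both sides.

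Peak GC moved with the genotype difference at D2, a measure chosen with the data in view. Gar1 and Rrs1 have a peak GC of 80%, and the members next below are Wdr43 (78%), Mrto4 (76%) and Fbl (75%), with a median of 69% over the 35 and of 72% over 12819 tested genes. Of the 5 members at 75% or more, 2 were lower in KO cells at D2, and of the 30 under 75%, 0 were. Over all tested genes, 33.1% of the 5297 at 75% or more were lower, against 2.70% of the 7522 under 75%.

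A GC score was computed per library as the median log2 deviation of the 2862 genes at 80% or more minus that of the 4746 genes under 70%. It was -0.50, -0.38 and -0.39 in KO D2 libraries, against -0.18, 0.23 and 0.10 in WT D2 libraries, and 0.09, 0.32 and 0.28 in KO D0, against 0.17 and 0.25 in WT D0 libraries. The KO D2 libraries had the 3 lowest scores, and WT D2 replicate 1, the WT D2 library with the least Gar1 and Rrs1, had the lowest of its group. With a GC offset fitted per library, Gar1 was still lower in KO cells at D2 (log2 -1.50, edgeR adjusted p = 0.00092), and so was Rrs1 (log2 -0.83, edgeR adjusted p = 0.038). The difference of the day changes of Gar1 became -1.38 and did not pass (edgeR adjusted p = 0.063). In that fit all 35 members, Gar1 and Rrs1 among them, were called higher at D2 in both KO and WT cells. Of all 12819 genes in it, 4015 were called higher at D2 in KO cells and 3760 in WT cells.

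**Figure D3:**
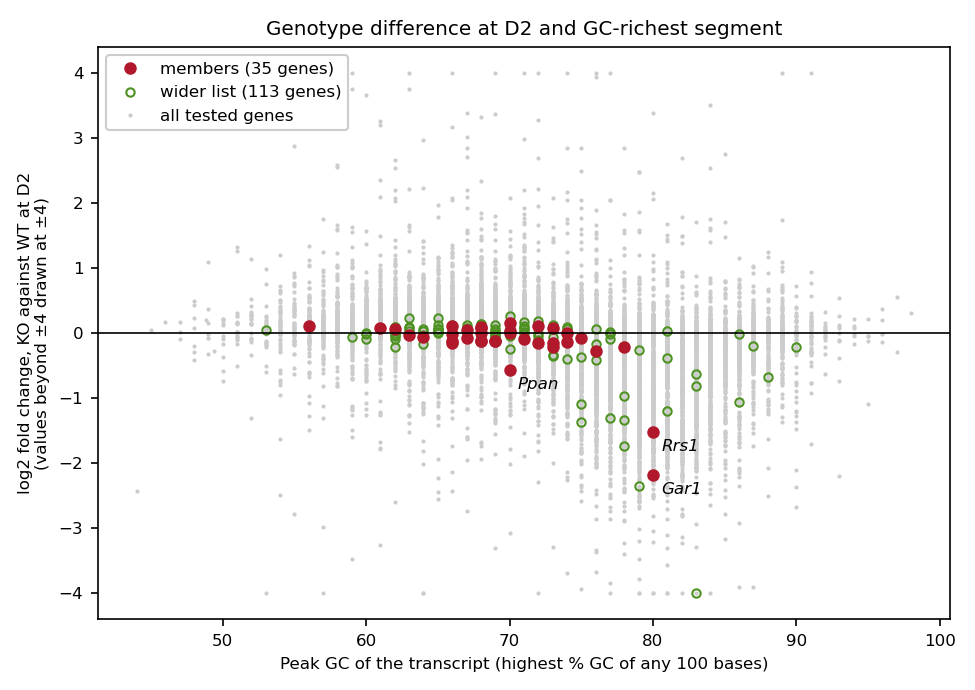
The log2 difference of KO against WT at D2 is plotted against peak GC in percent, with filled points for the 35 members, open points for 113 related genes and grey points for all tested genes. Members under 75% lie between -0.57 and 0.15, and Gar1 (-2.18) and Rrs1 (-1.52) lie at 80% among many grey points below 0.

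A wider list of 116 further genes of the Myc network and of ribosome assembly put the members in context, and 113 of them were matched and tested. Between D2 and D0, 89 were higher and 8 lower in KO cells (median log2 1.03), and 92 were higher and 6 lower in WT cells (median 1.08). Of all tested genes, 27% were called higher and 34.5% lower in KO cells, and 27.5% higher and 26% lower in WT cells. The RUVBL helicases of snoRNP assembly rose, with log2 changes in KO and WT cells of 2.18 and 2.33 for Ruvbl2 and 2.07 and 2.12 for Ruvbl1. Of the 9 snoRNP assembly genes 8 rose in KO cells and all 9 in WT cells. Of 40 small subunit factors 36 rose and 1 fell in KO cells, and 37 rose and 0 fell in WT cells, the smallest p in WT cells being those of Tsr1 (2.07 in KO, 1.92 in WT) and Nol10 (2.07 in KO, 1.80 in WT). Of 41 large subunit factors 35 rose and 2 fell in KO cells, and 37 rose and 1, the helicase Ddx55, fell in WT cells. The smallest p of this group in WT cells were those of Rrp1b (2.09 in KO, 2.61 in WT) and Rsl24d1 (1.74 in KO, 1.85 in WT), and the largest log2 changes, named after their values were seen, were those of Rpf2 in KO cells (2.50) and of Tma16 in WT cells (2.76). Of 11 RNA polymerase I factors 6 rose and 1 fell in KO cells, and 6 rose and 2, Sirt7 and Ttf1, fell in WT cells. Nol11 (1.47 in KO, 1.35 in WT) and the initiation factor Rrn3 (1.11 in KO, 1.18 in WT) had the smallest p of those that rose in WT cells.

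The partners and rivals of Myc changed in both directions. Max, the obligate partner, stood at 153, 151 and 85.0 CPM in KO D2, 171, 117 and 84.7 CPM in WT D2, 64.1, 33.0 and 35.1 CPM in KO D0 and 33.4 and 53.5 CPM in WT D0 libraries. All D2 libraries lay above all D0 libraries, and the change was 1.56 in KO (SE 0.33, edgeR adjusted p = 0.0011) and 1.51 in WT cells (SE 0.38, edgeR adjusted p = 0.0043) on the log2 scale. The proteins of the MXD family and Mnt also bind Max and repress at E-boxes. Of these, Mxd3 rose by 1.08 in KO and 1.04 in WT cells, whereas Mxi1 fell by 1.72 in KO and 1.47 in WT cells and Mnt fell by 1.26 in KO and 0.63 in WT cells, all on the log2 scale.

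Mxd4 fell the most of the network. It stood at 0.256, 0.237 and 0.0905 CPM in KO D2 and 0.0996, 0.136 and 0.331 CPM in WT D2 libraries, at or near the floor of 3 counts per library (0.107 to 0.154 CPM over the libraries). At D0 it stood at 7.42, 11.6 and 11.8 CPM in KO and 5.46 and 8.60 CPM in WT libraries. Fitted log2 changes were -5.70 in KO (edgeR adjusted p = 2.1e-07) and -5.14 in WT cells (edgeR adjusted p = 8.8e-07), and their size depends on these few counts. In KO cells Mga, another Max partner, rose by 0.48 and Mycl was called lower with 0 counts in all 3 KO D2 libraries and 13, 0 and 2 in KO D0 libraries.

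Mxd1 (Entrez 17119, chr6:86647044-86669234) rose in both genotypes. It stood at 666, 815 and 739 CPM in KO D2 libraries, against 1259, 2135 and 1723 CPM in WT D2 libraries, and at 263, 365 and 286 CPM in KO D0, against 306 and 351 CPM in WT D0 libraries. All KO D2 libraries lay below all WT D2 libraries and above all D0 libraries. The day change was 1.28 in KO (SE 0.18, edgeR adjusted p = 5.2e-05) and 2.38 in WT cells (SE 0.22, edgeR adjusted p = 1.8e-06) on the log2 scale. Its KO against WT difference at D2 was -1.20 (SE 0.18, edgeR adjusted p = 0.00068). The difference of the changes was -1.09 (SE 0.27, edgeR adjusted p = 0.036), and this call was lost in 11 of 19 other settings and left-out libraries, among them the GC offset, RLE scaling and 9 fits that each left out 1 library (highest edgeR adjusted p = 0.27). The peak GC of Mxd1 is 81%.

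**Figure D4:**
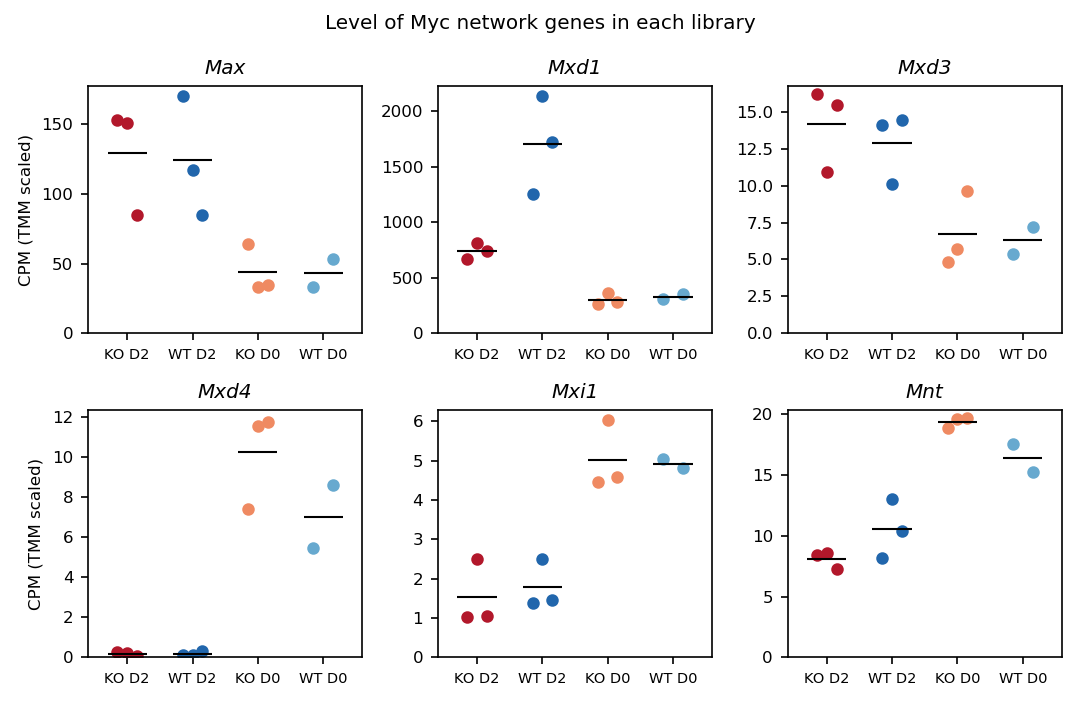
The CPM of 6 called genes of the Myc network are plotted per library in KO D2, WT D2, KO D0 and WT D0, with lines for group means and axes that start at 0. Mxd1 separates KO D2 from WT D2 libraries, whereas Max, Mxd3, Mxd4, Mxi1 and Mnt overlap between the genotypes at D2.

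Between genotypes at D2, 11 of the 113 wider genes were lower in KO cells and 0 higher, a smaller share than the 14.5% of all tested genes called lower. Of these 11, 10 have a peak GC of 75% or more, as do 27 of the 113. At that peak GC, 37.0% of the 27 wider genes were lower, against 33.1% of the 5297 tested genes, so the smaller share did not hold there. Besides Mxd1, the 11 included Ubtf, the upstream binding factor of RNA polymerase I (log2 -0.67, edgeR adjusted p = 0.012). They also included Sirt7, a nucleolar deacetylase (-1.37, 0.00053), and Nufip1, a snoRNP assembly factor (-1.10, 0.0004). The small subunit factors were Utp18 (-2.35, 0.00069), Rcl1 (-0.97, 0.00038), Imp3 (-1.30, 0.0092) and Wdr36 (-0.40, 0.023). The large subunit factors were the helicase Ddx51 (-1.74, 0.0017), Noc2l (-1.06, 0.015) and Tex10 (-0.41, 0.026), each pair giving the log2 difference and the edgeR adjusted p. Leaving out KO D2 replicate 1 left 6 calls, and leaving out WT D2 replicate 3 left 7. Of the 20 other settings and left-out libraries, Tex10 lost its call in 8 (highest adjusted p = 0.70) and Wdr36 in 6, both with the DESeq2 test, RLE scaling and the GC offset among them. Noc2l lost it in 4 and Ubtf in 3, both with the GC offset among them, and Imp3 in 1. At D0, 0 of the 113 were called (2 at an unadjusted edgeR p under 0.05, and 0 with DESeq2).

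Markers of other cells were summed per library. The erythroid markers (5 genes, mainly globins) gave 49.4 to 159 CPM in KO D2, 27.6 to 245 CPM in WT D2, 77.6 to 705 CPM in KO D0 and 151 to 643 CPM in WT D0 libraries. Summed B cell markers (6 genes) lay between 31.5 and 56.8 CPM in every library, with Pax5 at 0 in all D2 libraries. Macrophage and monocyte markers (6 genes) gave 593 to 755 CPM in KO D2, 523 to 616 CPM in WT D2, 543 to 859 CPM in KO D0 and 829.6 to 1010.2 CPM in WT D0 libraries, most of it from Ccr2 and Ly6c2, which NK cells also express. Summed plasma cell markers (4 genes, mainly Jchain) gave 16.3 to 27.4 CPM in KO D2, 22.0 to 31.9 CPM in WT D2, 5.27 to 7.22 CPM in KO D0 and 9.65 to 48.3 CPM in WT D0 libraries, with Tnfrsf17 at 0 in all KO D0 libraries. Summed markers of type 1 innate lymphoid cells (4 genes) were lower in all D2 libraries, at 2.62 to 4.66 CPM in KO D2 and 2.94 to 3.89 CPM in WT D2, against 7.25 to 9.25 CPM in KO D0 and 7.09 to 11.2 CPM in WT D0 libraries. The part of other cells in the D2 against D0 changes was not tested.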

How the data were processed

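The authors deposited 1 table of whole-number counts, with a gene (Entrez ID) on each line and a column for each of 11 libraries. Per the submitters' processing notes, the build was mm10 and the tools included Salmon 0.13.1 (also written 13.1), DESeq2 1.22.2, Trimmomatic 0.36 and bcl2fastq 2.20.0.422. Their roles are not given in the sources used here, and the counts may be rounded estimates, which can split reads between near-identical or overlapping genes. Symbols came from a RefSeq table of GRCm38.p6, which matched 24387 of 24421 IDs, and the 34 unmatched IDs took 0.0244% or less of the counts in each library.

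The test was edgeR 4.0.16 (R 4.3.3), in its robust quasi-likelihood form with TMM scaling and the filterByExpr filter. A single model of the 4 group means, without covariates, held all 11 libraries and had 7 residual degrees of freedom. Contrasts were KO against WT at each title day, D2 against D0 in each genotype, and the difference of these changes. Calls were made at an adjusted p under 0.05 (Benjamini-Hochberg, over all 13711 genes tested). Standard errors came from the quasi-likelihood F statistic. CPM are not corrected for gene length. D2 libraries had TMM factors from 0.860 to 0.907 and D0 libraries from 1.11 to 1.21. The floor of 3 counts covers counting error only.

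The members, the wider list and the tests were chosen with earlier results of these data known. Named were Myc, in each role group the members called between genotypes and the member with the smallest p for D2 against D0 in WT, in each wider group up to 2 called genes per direction, and all called Myc network genes. Symbols of 3 wider genes (Polr1f, Polr1g, Polr1h) found no match. The peak GC, the GC score and the GC offset (a lowess curve per library, span 0.3) were likewise taken up with the data in view. Other settings were the DESeq2 1.42.0 Wald test, RLE scaling, other filters, fits of only the compared groups, a replicate block, and fits that each dropped 1 library.

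At D2, the deviations of same-numbered KO and WT libraries from their group means had correlations of 0.217, 0.198 and 0.114. Differently numbered KO and WT libraries at D2 lay between -0.193 and 0.00511. Same-numbered libraries of different title days reached 0.218 (WT D2 and KO D0 replicate 1), so the check did not single out pairs within D2. At D0 the 2 shared numbers gave 0.0275 and 0.410, while KO replicate 1 and WT replicate 2 gave 0.376. The deviations of the 2 WT D0 libraries are mirror images, so the D0 values cannot decide the pairing. Pairing by number is thus not settled. The main test held no block, and fits with the number as a block were other settings. The labels call each sample 1 mouse, and p-values measure the spread between these libraries. On simulated counts for KO against WT at D2, 83% of the changes of log2 1 and 10% of those of log2 0.5 were recovered, with 2 false calls among 13231 genes. The simulated counts had trended dispersions only, with no GC trend and no pairing of libraries, and genes at low levels were not changed. Their false calls therefore do not measure the error in the real data.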

Additional observations from a re-analysis of the deposited data

Results flagged for a closer look

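The change between D2 and D0 differed between genotypes, by the test of that difference in edgeR, in 6 genes, 1 of the 35 members and 5 of the 113 wider genes. Of all tested genes, 5.72% were called lower and 0.124% higher in this difference, so neither list as a whole held a larger share than all genes did. At a peak GC of 75% or more, 1 of 5 members (20%) and 5 of 27 wider genes (18.5%) were called lower. The share there was 13.3% of the 5297 tested genes. Values are log2 differences of the D2 against D0 change, KO minus WT. Gar1, of the box H/ACA snoRNP, stood at -2.06 (edgeR adjusted p = 0.023). Mxd1, a rival of Myc for Max, stood at -1.09 (edgeR adjusted p = 0.036).

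Sirt7, a nucleolar deacetylase that fell in both genotypes, stood at -1.27 (edgeR adjusted p = 0.029). It had 41.2, 45.3 and 43.5 CPM in KO D2 libraries, against 89.9, 115 and 130.5 CPM in WT D2 libraries. At D0 it had 194, 275 and 315 CPM in KO libraries, against 227 and 332 CPM in WT libraries.

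Nufip1, which helps assemble snoRNPs, stood at -0.98 (edgeR adjusted p = 0.029), with 19.5, 24.2 and 24.1 CPM in KO D2 libraries, against 48.5, 49.95 and 46.8 CPM in WT D2 libraries. Utp18, of the small subunit processome, stood at -2.11 (edgeR adjusted p = 0.035), with 12.4, 16.9 and 15.9 CPM in KO D2 libraries, against 34.5, 110.4 and 85.6 CPM in WT D2 libraries. Rcl1, which acts in early processing of the precursor RNA, stood at -1.19 (edgeR adjusted p = 0.01), with 33.5, 39.9 and 41.3 CPM in KO D2 libraries, against 64.4, 80.5 and 79.2 CPM in WT D2 libraries.

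All 6 have a peak GC of 75% or more, and none passed the threshold with the GC offset, whereas all 6 passed with the GC offset and the replicate block together. Of the 19 other settings and left-out libraries, Rcl1 lost its call in 2, Gar1 and Sirt7 in 9 each, Nufip1 in 10, and Mxd1 and Utp18 in 11 each.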

How the results depend on the processing

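Against D0, 33 members (35 with the GC offset) were called higher at D2 in KO cells and 35 in WT cells in every setting tried. The call of 0 members at D0 also held. For KO against WT at D2, 2 members were called, 3 with the GC offset, with only the compared groups or with the replicate block across days, and 5 with the block within the title day. With the block and the GC offset 8 were called (Gar1, Rrs1, Ppan, Mybbp1a, Ncl, Nop56 and Npm1 lower, Wdr43 higher at a log2 difference of 0.32, against -0.21 without these terms, so that its direction turned), where 25.2% of all genes were called. For the difference of the day changes, 1 member was called, 2 with DESeq2 and 0 with the GC offset. With the GC offset and the block 4 were called, and 3 with the block within or across days. Of all genes, 5.84% were called in this difference, 9.54% with DESeq2, 1.23% with the GC offset and 16.9% with the GC offset and the block. With the block within the title day 19.1% of all genes were called, and 13.6% with the block across days. Leaving out 1 library of a group of 3 gave between 0 and 2 called members. The cause was not tested. RLE scaling moved the median log2 change of all genes from -0.20 to -0.09 for D2 against D0 in KO cells and from -0.04 to 0.06 for the difference. Among the wider genes the difference had 5 calls, 14 with the block within the title day, 3 with RLE scaling and 0 with the GC offset. The comparison at D0 rests on 2 WT libraries, and a fit without 1 of them takes its spread from the other groups.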
